A study of Mus musculus with 19 samples.

Results

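The phagocyte NADPH oxidase is described here through 6 genes in sorted mouse bone marrow cells: Cybb, Cyba, Ncf1, Ncf4, Rac2 and Hvcn1. They were chosen by name, as the membrane subunits, cytosolic subunits, small GTPase and proton channel of the enzyme. All 6 had a row among the 50854 genes counted and all 6 had enough reads to be tested. The libraries are bulk RNA-seq of bone marrow cells sorted from female REP mice of 8 to 12 weeks. In these reporter mice inflammatory chemokine receptors, CCR1 and CCR2 among them, are each marked by their own fluorescent protein. Resting CCR2+ve monocytes carry the CCR2 reporter alone (4 libraries), and resting CCR1/2+ve monocytes carry the CCR1 and CCR2 reporters together (4 libraries). Inflamed CCR2+ve monocytes (4 libraries) and inflamed CCR1/2+ve monocytes (3 libraries) were sorted in the same way from mice with osmotic pumps that released IL-3, IL-6, GM-CSF and IFN-α. A further 4 libraries are labelled inflamed CCR1, and their markers, given below, go against monocytes. How those cells were gated is not described, and no source used here says whether 2 libraries of a group came from separate mice, so the p-values measure the spread between these samples only. The mixture was given as a whole, so the part of any 1 of its cytokines cannot be told apart. The paper's methods for resting marrow mention no pump, whereas inflamed mice had anaesthesia, an analgesic and surgery to implant one. The study also had mice with pumps that held PBS alone. No source used here says whether the resting libraries came from such mice. Cytokines, procedure and any batch between rest and inflammation therefore cannot be told apart. Below, a change with inflammation means inflamed against resting libraries. In bulk RNA, fewer cells of a type and less RNA per cell cannot be told apart either.

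The NADPH oxidase makes superoxide by passing electrons from cytosolic NADPH across the membrane to oxygen, and phagocytes use it to kill ingested microbes. Cybb encodes gp91phox, the catalytic subunit, which sits in the membrane with p22phox, the product of Cyba, as flavocytochrome b558. Ncf1 (p47phox) and Ncf4 (p40phox) encode cytosolic subunits that move to the membrane when the cell is stimulated, together with GTP-bound Rac2 or Rac1. Hvcn1 encodes a voltage-gated proton channel that lets protons follow the electrons and so keeps the enzyme running. Loss of Cybb, Cyba, Ncf1 or Ncf4 causes chronic granulomatous disease. Neutrophils and monocytes are the classical cells of the complex, and the genes are switched on as myeloid precursors mature.

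At rest, CCR1/2+ve monocytes had less Cybb and more Hvcn1 than CCR2+ve monocytes in the main fit, which ignores pairs. Both kept their call in all 17 other settings of the fit. Cyba, the partner of Cybb, was called, slightly higher, only in 6 of those 17, among them the one that treats the libraries as pairs. Ncf1 was called, lower, only in 3 of those 17, the paired fit among them. With inflammation Cyba rose in both populations, while Cybb fell in CCR2+ve and rose in CCR1/2+ve cells. The fall was halved and lost its call with a correction for GC content, whereas the rise was called in all 16 other settings of the fit. The difference between those changes of Cybb passed its own test but lost the call in 6 of 24 such settings, which include leaving out single libraries. Rac2 and Ncf4 rose with inflammation in both populations, and Hvcn1 fell in both. The libraries labelled inflamed CCR1 were higher than both other inflamed groups in Hvcn1, Ncf1, Rac2 and Ncf4. Of the membrane subunits neither was called, but Cybb was called against inflamed CCR2+ve monocytes in 9 of 17 settings, the paired fit among them.

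On GRCm38 with the GENCODE M21 gene models, Cybb (ENSMUSG00000015340) lies at chrX:9435252-9487771 on the minus strand and Cyba (ENSMUSG00000006519) at chr8:122424776-122432930 on the minus strand. Ncf1 (ENSMUSG00000015950) lies at chr5:134220053-134229625 on the minus strand, and 11.1% of its exonic bases are shared with exons of Gtf2ird2 on the other strand. Hvcn1 (ENSMUSG00000064267) lies at chr5:122206804-122242297 on the plus strand, and 44.2% of its exonic bases are shared with exons of Tctn1 on the other strand. Ncf4 (ENSMUSG00000071715) lies at chr15:78244801-78262580 on the plus strand and Rac2 (ENSMUSG00000033220) at chr15:78559167-78572783 on the minus strand, with no exonic base shared with another gene. The strand used in counting is not given in the sources used here, so reads of Hvcn1 and Tctn1, or of Ncf1 and Gtf2ird2, may have been mixed. Tctn1 itself was counted at 3.20 to 8.55 CPM and Gtf2ird2 at 3.69 to 21.1 CPM (group means).

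Promoters of Cybb, Cyba and Ncf1 are printed because only these members had a promoter sequence in the reference used here. Each is the 300 bases from 250 before to 50 from the annotated start, from RefSeq on GRCm38.p6. The Cybb window is chrX:9469275-9469574, the Cyba window chr8:122432891-122433190 and the Ncf1 window chr5:134229576-134229875, all on the minus strand and written 5′ to 3′ along the gene. The start used for Cybb lies inside the longer gene span of GENCODE. Ncf4, Rac2 and Hvcn1 are named only. Capitals mark every match on either strand to GAAANNGAAA (2 GAAA blocks of the kind that interferon regulatory factors bind), GAGGAA (an ETS core of the PU.1 kind), CCAAT or GGGCGG (a GC box).
Cybb: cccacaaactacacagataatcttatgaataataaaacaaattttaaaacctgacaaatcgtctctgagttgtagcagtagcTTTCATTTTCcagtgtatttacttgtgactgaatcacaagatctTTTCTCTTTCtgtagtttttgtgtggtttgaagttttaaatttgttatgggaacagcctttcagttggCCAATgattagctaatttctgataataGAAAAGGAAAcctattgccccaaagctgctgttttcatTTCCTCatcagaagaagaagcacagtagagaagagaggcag
Cyba: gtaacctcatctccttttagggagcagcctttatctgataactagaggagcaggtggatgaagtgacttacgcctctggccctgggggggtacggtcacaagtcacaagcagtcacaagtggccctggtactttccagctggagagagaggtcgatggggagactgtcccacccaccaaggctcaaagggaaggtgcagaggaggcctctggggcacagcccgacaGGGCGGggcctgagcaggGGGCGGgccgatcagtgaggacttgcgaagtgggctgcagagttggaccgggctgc
Ncf1: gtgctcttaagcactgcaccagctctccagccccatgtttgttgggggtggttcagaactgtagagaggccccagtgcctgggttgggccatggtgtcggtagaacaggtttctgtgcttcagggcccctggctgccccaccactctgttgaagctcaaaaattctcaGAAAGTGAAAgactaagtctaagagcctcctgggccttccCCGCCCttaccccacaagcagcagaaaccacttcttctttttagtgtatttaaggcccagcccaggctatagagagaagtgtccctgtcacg

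The Cybb window held 3 matches to GAAANNGAAA, at 168 to 159, 124 to 115 and 29 to 20 bases before the start, whereas the Cyba window held 0 and the Ncf1 window 1, at 82 to 73 bases before the start. Of 32851 RefSeq promoters of the same length, 3.44% held that motif at least once. Cybb also had 1 CCAAT and 1 GAGGAA match, found in 37.4% and 28.3% of promoters. In Cyba 2 GC boxes lay within 24 bases of the start and Ncf1 had 1, a motif present in 35.7% of promoters. GC made up 35.3% of the Cybb window, 60.7% of the Cyba window and 54% of the Ncf1 window. No match overlapped another motif. A match describes the letters and does not show that a factor binds there.

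Between 22268658 and 30502009 reads were counted on genes per library (median 23706580), and no pair of replicates was alike within sampling noise. Levels are given as CPM, the read count relative to library size after TMM scaling over the 19 libraries. The libraries of the 4 monocyte groups had summed CPM of 32357 to 61669 over 14 monocyte marker genes and 1696 to 4233 over 14 mature neutrophil genes. In the libraries labelled inflamed CCR1 the monocyte sum was 7835 to 12465, the mature neutrophil sum 110039 to 160469 and the early granule sum 55536 to 62298, against 352 to 6811 in the other groups. Ngp and Mpo, neutrophil granule genes, averaged 86027 and 20730 CPM there, and the monocyte genes Csf1r and Ccr2 17.7 and 5.82 CPM. The markers of these libraries therefore go against the label of monocytes, and they are called here the libraries labelled inflamed CCR1.

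Per exonic length, Cyba was the most abundant member in all 5 groups, with means of 1540 CPM per kb in resting CCR2+ve and 3031 CPM per kb in inflamed CCR1/2+ve monocytes at the ends of its range. Cybb followed in both resting groups, at 551 CPM per kb in CCR2+ve and 325 CPM per kb in CCR1/2+ve cells, with Rac2 next at 319 and 298 CPM per kb. In the inflamed groups Rac2 was above Cybb per length, at 518 against 413 CPM per kb in CCR2+ve and 614 against 512 CPM per kb in CCR1/2+ve cells. Ncf4 was at 243 to 450 CPM per kb in the 4 monocyte groups and Ncf1 at 29.2 to 48.7 CPM per kb. Hvcn1 was the least abundant, at 2.91 to 6.40 CPM per kb in the monocyte groups and 130 CPM per kb in the libraries labelled inflamed CCR1. Behind the lowest of these values were 167 reads in a library for Hvcn1 and 1180 for Ncf1, and every other member had at least 11760 reads in each library.

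**Figure D1:**
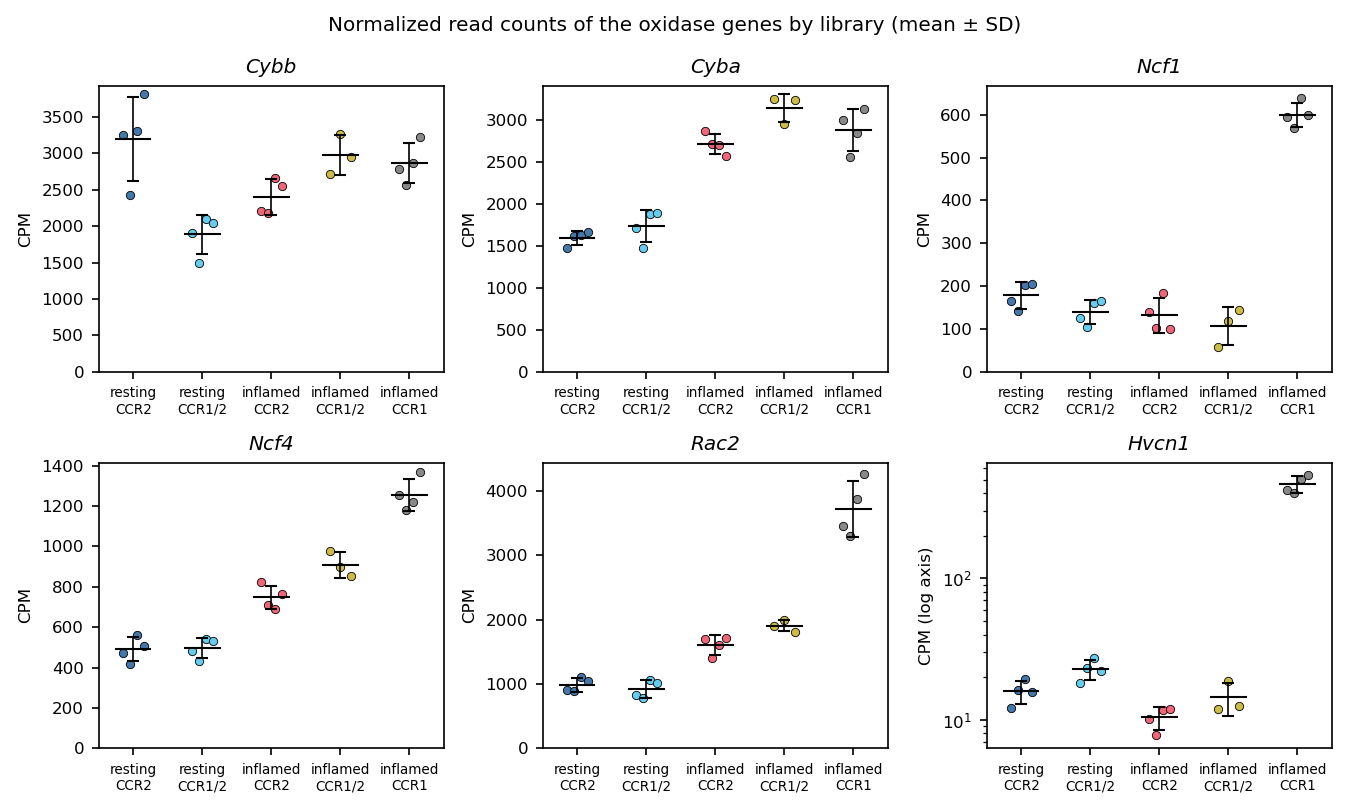
Level of each oxidase gene in each library, in CPM (y axis, a log axis for Hvcn1 only), by group (x axis). Points are libraries, bars are the mean and SD. Cybb is lowest in resting CCR1/2+ve monocytes (mean 1886 CPM), Cyba is at 2559 CPM or more in every inflamed library and at 1889 CPM or less in every resting one, and Hvcn1 is at 399 CPM or more in the libraries labelled inflamed CCR1 and at 27.4 CPM or less elsewhere.

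Cybb, the catalytic subunit, was counted at 3252, 2426, 3306 and 3810 CPM in the 4 resting CCR2+ve libraries. The 4 resting CCR1/2+ve libraries gave 1910, 1495, 2099 and 2042 CPM, and every one of them was below every CCR2+ve library. Inflamed CCR2+ve libraries gave 2211, 2175, 2659 and 2552 CPM. Inflamed CCR1/2+ve libraries gave 2719, 3260 and 2950 CPM, all above the inflamed CCR2+ve ones. The order of the populations was thus opposite at rest and under inflammation. Libraries labelled inflamed CCR1 gave 2788, 2570, 2873 and 3228 CPM, within the span of the other inflamed libraries. Ranked by group mean, Cybb was highest in resting CCR2+ve monocytes and lowest in resting CCR1/2+ve monocytes, 1.70-fold apart, and only the 2 lowest neighbours of that order, inflamed CCR2+ve and resting CCR1/2+ve, did not overlap.

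Cyba, the membrane partner, was counted at 1477, 1622, 1636 and 1664 CPM in resting CCR2+ve and at 1713, 1480, 1882 and 1889 CPM in resting CCR1/2+ve libraries, which overlapped. Inflamed CCR2+ve libraries gave 2871, 2717, 2709 and 2573 CPM, and inflamed CCR1/2+ve libraries 3251, 2955 and 3241 CPM. All inflamed libraries were above all resting ones. The libraries labelled inflamed CCR1, at 3005, 2559, 2846 and 3135 CPM, overlapped both other inflamed groups.

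Rac2, the GTPase of blood cells that switches the complex on, had 908, 887, 1114 and 1054 CPM in resting CCR2+ve and 835, 779, 1069 and 1012 CPM in resting CCR1/2+ve libraries. Inflamed CCR2+ve libraries had 1704, 1398, 1604 and 1721 CPM and inflamed CCR1/2+ve libraries 1909, 1994 and 1817 CPM. The resting populations overlapped, and the 2 inflamed ones were both above rest and apart from each other. The libraries labelled inflamed CCR1 were higher again, at 3463, 3300, 3877 and 4272 CPM. Ncf4, whose product p40phox binds a phagosomal phosphoinositide, showed the same order of the inflamed groups. It had 474, 419.5, 563 and 509 CPM in resting CCR2+ve, 482, 431, 543 and 532 CPM in resting CCR1/2+ve, 821.5, 709, 691 and 766 CPM in inflamed CCR2+ve and 978, 899 and 852 CPM in inflamed CCR1/2+ve libraries, so the resting groups overlapped and the inflamed groups stood above them. In the libraries labelled inflamed CCR1 it had 1254, 1182, 1219 and 1368 CPM.

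Ncf1, the organiser subunit whose phosphorylation starts assembly, had 165, 141, 201.5 and 206 CPM in resting CCR2+ve and 127, 105, 161 and 166 CPM in resting CCR1/2+ve libraries. Inflamed CCR2+ve libraries had 141, 101, 185 and 98.9 CPM and inflamed CCR1/2+ve libraries 57.2, 118 and 145 CPM. The 4 monocyte groups overlapped as neighbours in the order of means, and the spread was widest in inflamed CCR1/2+ve monocytes, with a coefficient of variation of 42.2%. In the libraries labelled inflamed CCR1, Ncf1 was at 594, 569.9, 638 and 599 CPM, above every other library. Hvcn1, the proton channel, had 12.1, 16.2, 19.4 and 15.8 CPM in resting CCR2+ve, 18.3, 23.3, 27.4 and 22.2 CPM in resting CCR1/2+ve, 10.05, 7.76, 11.7 and 12.0 CPM in inflamed CCR2+ve and 12.0, 18.8 and 12.5 CPM in inflamed CCR1/2+ve libraries. Hvcn1 had 421.5, 399, 504 and 534 CPM in the libraries labelled inflamed CCR1, and no monocyte library reached a level near theirs.

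The first comparison asks whether the populations differ at rest. Cybb was lower in CCR1/2+ve than in CCR2+ve monocytes, at 1886 ± 273 against 3198 ± 573 CPM (SD, n = 4 each), and Hvcn1 was higher, at 22.8 ± 3.74 against 15.9 ± 3.02 CPM. The log2 fold change was -0.69 (SE 0.13, adjusted p = 0.00274, edgeR) for Cybb, 1.61-fold lower, and 0.60 (SE 0.15, adjusted p = 0.0139) for Hvcn1. Hence 2 of the 6 members passed an adjusted p of 0.05, beside 16.9% of all 18652 genes tested, with 1 higher and 1 lower beside 8.44% of genes each way, and 0 also passed an absolute log2 fold change of 1, which 4.25% of genes did. Only Cybb had ranges that did not overlap, as 20.2% of genes did. The other members were not called: Cyba at 0.20 (SE 0.082, adjusted p = 0.129), Ncf1 at -0.28 (SE 0.14, adjusted p = 0.200), Ncf4 at 0.092 (SE 0.091) and Rac2 at -0.026 (SE 0.10). Replicate numbers paired these libraries, and with the number as a block 4 members were called, with Cyba higher at 0.19 (adjusted p = 0.0158) and Ncf1 lower at -0.28 (adjusted p = 0.000755) in addition. Without resting CCR1/2+ve replicate 2 Cyba was called as well (0.25, adjusted p = 0.0373). Of 14 monocyte genes 8 were lower and 0 higher in CCR1/2+ve cells, beside 8.44% of all genes each way. Their sums were 32357 to 45274 CPM in CCR1/2+ve and 47615 to 54526 CPM in CCR2+ve libraries. Markers of several other cell types moved with this comparison too. The mature neutrophil sum was 3354 to 4233 CPM in CCR1/2+ve and 1696 to 2466 CPM in CCR2+ve libraries, the early granule sum 3299 to 6811 against 446 to 1645 CPM, and the dendritic cell sum 175 to 485 against 899 to 2635 CPM. Of 14 mature neutrophil genes 2 were below 1 CPM in CCR1/2+ve and 4 in CCR2+ve cells, Ly6g in both, and of 10 dendritic cell genes 3 and 1, Zbtb46 in both. Of 10 tissue macrophage genes 6 were higher and 2 lower in CCR1/2+ve cells, with summed levels of 238 to 332 against 285 to 400.0 CPM, and of 10 T and NK cell genes 1 was higher and 5 were lower, with sums of 31.2 to 81.6 against 11.7 to 18.0 CPM, 9 of the 10 averaging below 1 CPM in each group. The part of these cells in the result was not tested. B cells also use Hvcn1. The sum over 11 B cell genes was 595 to 719 CPM in CCR1/2+ve and 760 to 1014 CPM in CCR2+ve libraries. In each group 2 of the 11 averaged 10 CPM or more. Below 1 CPM were 7 of the 11 in CCR1/2+ve and 8 in CCR2+ve cells, with Pax5, Ebf1 and Ms4a1 in both groups. The part of B cells in the level of Hvcn1 was not tested.

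The second comparison asks how inflammation changed CCR2+ve monocytes, and all 6 members were called, 3 higher and 3 lower, where 47.8% of all genes were called, 21.9% higher and 25.9% lower. Cyba rose from 1600 ± 83.5 to 2718 ± 122 CPM (log2 fold change 0.69, SE 0.087, adjusted p = 8.71e-06, n = 4 each). Rac2 rose from 991 ± 111 to 1607 ± 149 CPM (0.63, SE 0.11, adjusted p = 0.000173) and Ncf4 from 491 ± 60.4 to 747 ± 58.9 CPM (0.54, SE 0.11, adjusted p = 0.000600). Cybb fell from 3198 ± 573 to 2399 ± 243 CPM (-0.48, SE 0.13, adjusted p = 0.00552), Hvcn1 from 15.9 ± 3.02 to 10.4 ± 1.95 CPM (-0.68, SE 0.18, adjusted p = 0.00701) and Ncf1 from 178 ± 30.8 to 131 ± 40.4 CPM (-0.51, SE 0.18, adjusted p = 0.0318). No member passed the fold cutoff, which 28.6% of genes did. The ranges were apart for Cyba, Ncf4, Rac2 and Hvcn1, 4 of 6 members beside 45.7% of genes. The falls of Cybb and Ncf1 were the least secure. Cybb lost its call when read counts were corrected for gene GC content (-0.24, adjusted p = 0.206) and without resting CCR2+ve replicate 4 (-0.32, adjusted p = 0.0613). Ncf1 lost it without resting CCR2+ve replicates 1, 3 or 4 or inflamed CCR2+ve replicates 2 or 4, where its log2 fold change lay between -0.48 and -0.36 and its adjusted p between 0.0802 and 0.165, and also with no filter on low counts (-0.50, adjusted p = 0.0619) or with all 19 libraries in 1 fit (-0.44, adjusted p = 0.133). The early granule sum was 352 to 630 CPM in inflamed and 446 to 1645 CPM in resting CCR2+ve libraries and the dendritic cell sum 1383 to 5070 against 899 to 2635 CPM. All 6 basophil and mast cell genes tested rose, with sums of 110 to 246 against 6.36 to 16.3 CPM, and all 9 erythroid genes tested fell, from sums of 89.2 to 259 to 2.15 to 4.65 CPM. Of 10 tissue macrophage genes 4 rose, with sums of 552 to 762 against 285 to 400.0 CPM, and of 14 mature neutrophil genes 8 rose and 2 fell. The part of these cells in the changes was not tested.

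In CCR1/2+ve monocytes 5 of 6 members were called with inflammation, 4 higher and 1 lower, where 46% of all genes were called, 20.6% higher and 25.4% lower. Rac2 rose from 924 ± 139 to 1907 ± 88.5 CPM (log2 fold change 0.92, SE 0.093, adjusted p = 7.86e-06, n = 4 and 3). Ncf4 rose from 497 ± 51.5 to 909 ± 63.9 CPM (0.74, SE 0.082, adjusted p = 1.61e-05), Cyba from 1741 ± 192 to 3149 ± 168 CPM (0.73, SE 0.083, adjusted p = 1.98e-05) and Cybb from 1886 ± 273 to 2976 ± 272 CPM (0.53, SE 0.11, adjusted p = 0.00138). Hvcn1 fell from 22.8 ± 3.74 to 14.4 ± 3.83 CPM (-0.79, SE 0.19, adjusted p = 0.00518). Ncf1 was at 139.7 ± 28.9 and 107 ± 45.1 CPM (-0.50, SE 0.29, adjusted p = 0.195) and was not called, and its log2 fold change ran from -0.81 without inflamed CCR1/2+ve replicate 4, where it was called (adjusted p = 0.0425), to -0.19 without inflamed CCR1/2+ve replicate 2. The 4 members that rose had ranges apart, 4 of 6 beside 50.1% of genes, and none passed the fold cutoff beside 28.5% of genes. The median log2 fold change of all genes was -0.25 in this fit and 0 with the GC correction, which moved the share of higher genes among those called from 44.8% to 55.6%. With that correction Cyba was at 1.19, Rac2 at 1.02, Cybb at 0.85, Ncf4 at 0.83 and Hvcn1 at -0.72, all still called. The early granule sum was 958 to 1371 CPM in inflamed and 3299 to 6811 CPM in resting CCR1/2+ve libraries and the dendritic cell sum 962 to 1208 against 175 to 485 CPM. Of 6 basophil and mast cell genes 4 rose, with sums of 135 to 184 against 6.84 to 30.5 CPM, and of 9 erythroid genes 7 fell, from sums of 54.1 to 169 to 2.28 to 5.30 CPM. Of 10 tissue macrophage genes 3 rose and 6 fell, although their sum was 636 to 648 against 238 to 332 CPM, and of 14 mature neutrophil genes 7 rose and 3 fell. The part of these cells in the changes was not tested.

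**Figure D2:**
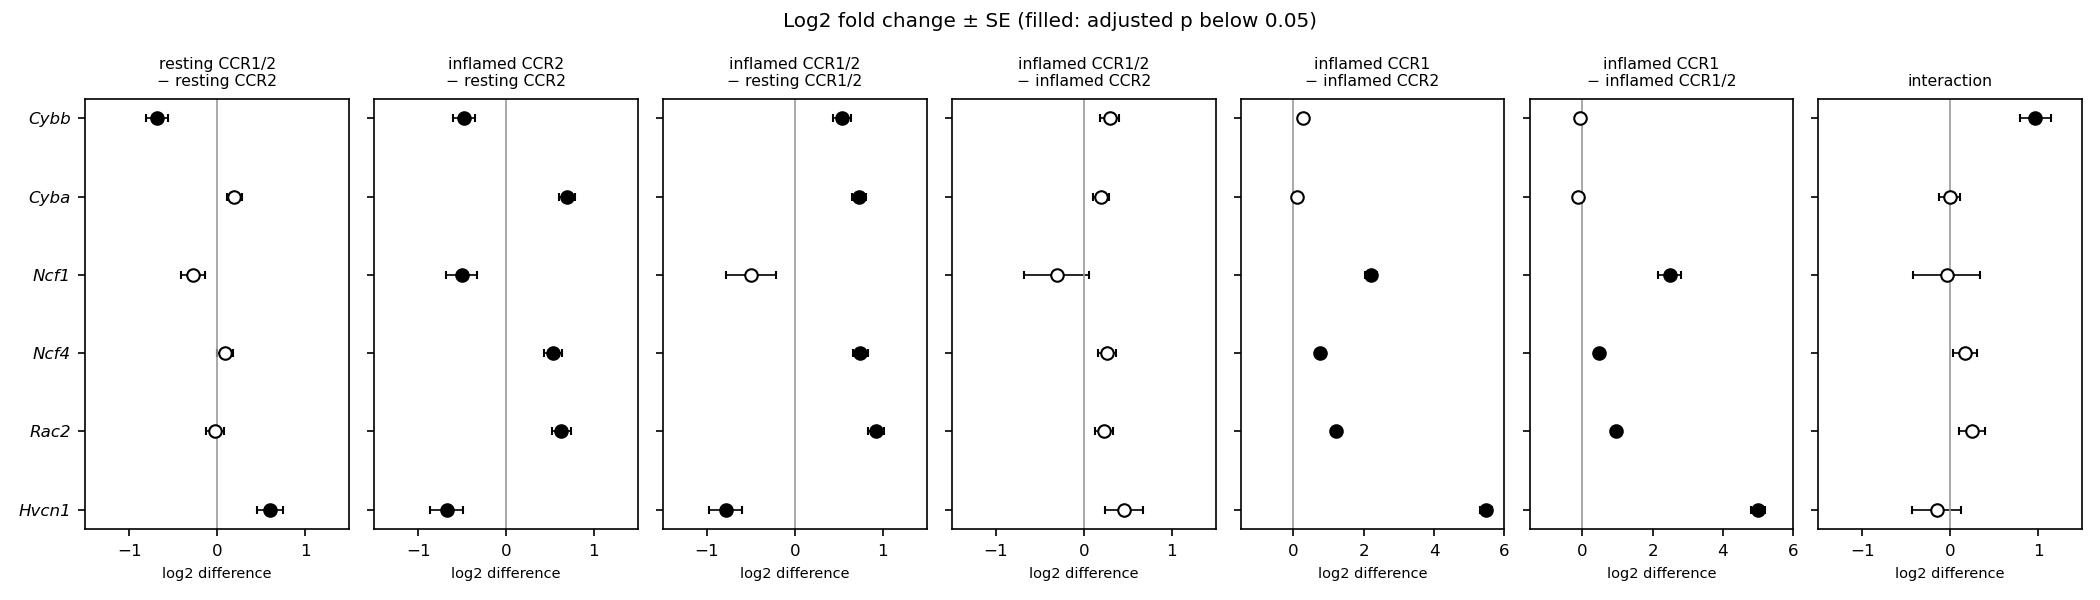
Log2 fold change of each oxidase gene (x axis, error bars are the SE from the fit) in the 6 comparisons of groups and in the interaction, the change with inflammation in CCR1/2+ve minus that in CCR2+ve monocytes. Filled points have an adjusted p below 0.05. Cybb sits at -0.48 in CCR2+ve and 0.53 in CCR1/2+ve cells, while Cyba, Ncf4 and Rac2 lie to the right and Hvcn1 to the left in both, and the panels with the libraries labelled inflamed CCR1 have a wider axis, on which Hvcn1 reaches 5.48.

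Whether inflammation changed the populations differently was tested in 1 fit of the 15 monocyte libraries, which are those of the comparisons above and no further samples. For Cybb the change in CCR1/2+ve exceeded that in CCR2+ve monocytes by 0.97 on the log2 scale (SE 0.18, adjusted p = 0.0273, edgeR), and 1 of 6 members passed where 0.397% of all genes did. That share rests on 74 genes, a number that ran from 0 without inflamed CCR1/2+ve replicate 3 to 253 without inflamed CCR2+ve replicate 4. Cyba differed by -0.0080 (SE 0.12), Ncf1 by -0.042 (SE 0.38), Ncf4 by 0.17 (SE 0.14), Rac2 by 0.25 (SE 0.15) and Hvcn1 by -0.15 (SE 0.28), none of which was called. The difference of Cybb stayed between 0.89 and 1.07 with any 1 library left out, but the call rested on several of them. It was lost without resting CCR1/2+ve replicate 2 (adjusted p = 0.0643), resting CCR2+ve replicate 3 (0.0733), inflamed CCR1/2+ve replicate 3 (0.136), inflamed CCR2+ve replicate 1 (0.0711) or inflamed CCR2+ve replicate 2 (0.0559). It was lost as well with the GC correction, where the difference was 1.07 (adjusted p = 0.0533).

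Under inflammation 0 of 6 members were called between the CCR1/2+ve and the CCR2+ve cells by edgeR, and 0 by DESeq2, where edgeR called 0.188% of all genes, 35 genes that became 16 to 65 with a library left out. The levels of Cybb, Cyba, Ncf4 and Rac2 in all 3 CCR1/2+ve libraries were nevertheless above those in all 4 CCR2+ve libraries, 4 of 6 members beside 9.71% of genes. Their log2 fold changes were 0.29 (SE 0.11) for Cybb, 0.20 (SE 0.089) for Cyba, 0.27 (SE 0.10) for Ncf4 and 0.23 (SE 0.10) for Rac2, and these 4 had an unadjusted p below 0.05 but adjusted p of 0.429 to 0.551. Hvcn1 was at 0.46 (SE 0.22) and Ncf1 at -0.31 (SE 0.37). The mature neutrophil sum was 3790 to 4214 CPM in the CCR1/2+ve and 2211 to 2379 CPM in the CCR2+ve libraries, the early granule sum 958 to 1371 against 352 to 630 CPM and the dendritic cell sum 962 to 1208 against 1383 to 5070 CPM. The part of these cells in the levels was not tested.

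The ratio of the membrane subunits within a library needs no scaling between libraries. Cyba exceeded Cybb per exonic length by 2.54, 3.74, 2.77 and 2.44 times in the resting CCR2+ve libraries and by 5.02, 5.54, 5.01 and 5.17 times in the resting CCR1/2+ve ones. Inflamed CCR2+ve libraries were at 7.26, 6.98, 5.70 and 5.63 and inflamed CCR1/2+ve libraries at 6.68, 5.07 and 6.14. The resting CCR2+ve group thus stood below all others, with a mean of 2.87 ± 0.594 against 5.18 ± 0.246 in resting CCR1/2+ve, 6.39 ± 0.849 in inflamed CCR2+ve and 5.96 ± 0.823 in inflamed CCR1/2+ve monocytes. In the libraries labelled inflamed CCR1 it was 5.64 ± 0.264.

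**Figure D3:**
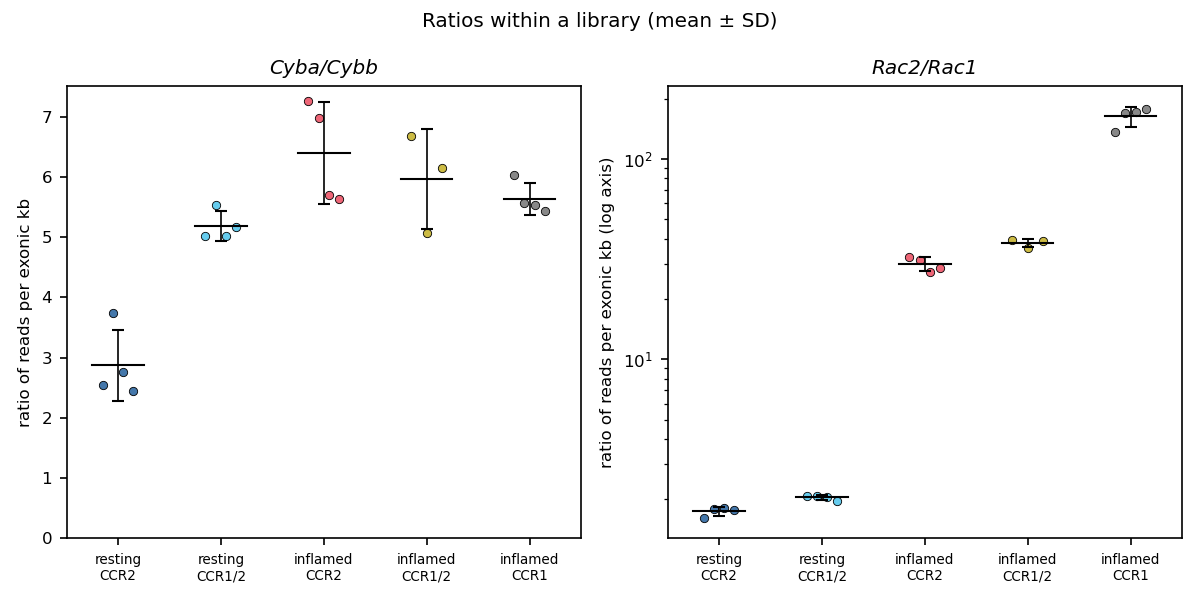
Ratio of 2 genes within each library, in reads per exonic kb, by group (x axis), with points for libraries and bars for the mean and SD. Left, Cyba over Cybb is 2.44 to 3.74 in resting CCR2+ve libraries and 5.01 or more in all others. Right, on a log axis, Rac2 over Rac1 is 1.62 to 2.08 at rest and 27.3 to 39.4 in inflamed CCR2+ve and CCR1/2+ve libraries.

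The libraries labelled inflamed CCR1 differed from inflamed CCR2+ve monocytes in 4 of 6 members, all higher, where 48.1% of all genes were called and 22.7% were called higher. Hvcn1 was 44.8-fold higher, at 465 ± 64.5 against 10.4 ± 1.95 CPM (log2 fold change 5.48, SE 0.16, adjusted p = 6.35e-14, n = 4 each). Ncf1 was 4.58-fold higher, at 600.3 ± 28.2 against 131 ± 40.4 CPM (2.20, SE 0.17, adjusted p = 5.75e-08), and Rac2 2.32-fold higher, at 3728 ± 436 against 1607 ± 149 CPM (1.22, SE 0.11, adjusted p = 6.29e-08). Those 3 passed the fold cutoff, beside 31.3% of genes. Ncf4 was higher by 0.75 (SE 0.097, adjusted p = 5.05e-06) without reaching it. Cybb was at 0.26 (SE 0.11, adjusted p = 0.0567) and Cyba at 0.093 (SE 0.095, adjusted p = 0.458), neither called. Replicate numbers were read as pairs here too, on a weaker correlation than at rest, and with the block Cybb was called (0.26, adjusted p = 0.0272). It was called as well without inflamed CCR1 replicate 2 (0.32, adjusted p = 0.0390), inflamed CCR2+ve replicate 3 (0.32, adjusted p = 0.0341) or inflamed CCR2+ve replicate 4 (0.30, adjusted p = 0.0315). Ranges were apart in 4 of 6 members, beside 45.3% of genes.

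Against inflamed CCR1/2+ve monocytes, with which this comparison shares the libraries labelled inflamed CCR1, 4 of 6 members were higher where 43.2% of all genes were called and 20.2% called higher. Hvcn1 was 32.1-fold higher (SE 0.20 on the log2 scale, adjusted p = 4.58e-09), Ncf1 5.58-fold (2.48, SE 0.33, adjusted p = 0.000791), Rac2 by 0.97 (SE 0.098, adjusted p = 2.28e-06) and Ncf4 by 0.47 (SE 0.088, adjusted p = 0.000618). Hvcn1 and Ncf1 passed the fold cutoff, 2 of 6 members beside 27.7% of genes, and the 4 called members had ranges apart, beside 47.4% of genes. Cybb was at -0.058 (SE 0.10) and Cyba at -0.13 (SE 0.089). Neutrophil granule genes moved with both comparisons, as the sums above show. In the libraries labelled inflamed CCR1 the dendritic cell sum was 12.5 to 24.6 CPM. It was 1383 to 5070 CPM in inflamed CCR2+ve and 962 to 1208 CPM in inflamed CCR1/2+ve libraries. In that order, the T and NK cell sum was 1361 to 1708, 8.09 to 11.7 and 8.50 to 9.75 CPM. The basophil and mast cell sum was 868 to 1017, 110 to 246 and 135 to 184 CPM. The part of these differences in the values of Hvcn1, Ncf1, Rac2 and Ncf4 was not tested. Tctn1, which shares exons with Hvcn1, was at 4.79 CPM in the libraries labelled inflamed CCR1 against 8.55 and 7.79 CPM in the other inflamed groups. Gtf2ird2, which shares exons with Ncf1, was at 21.1 against 4.59 and 3.69 CPM, far below Ncf1 itself. In the libraries labelled inflamed CCR1 the B cell sum was 460 to 776 CPM. It was 909 to 1692 CPM in inflamed CCR2+ve and 959 to 1660 CPM in inflamed CCR1/2+ve libraries. In the libraries labelled inflamed CCR1, 9 of 11 B cell genes averaged below 1 CPM, Pax5, Ebf1 and Ms4a1 among them, and 2 averaged 10 CPM or more. The part of B cells in these values was not tested.

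Across the 19 libraries, Ncf4 and Rac2 followed each other most closely of the 15 pairs of members (Pearson r = 0.983 of log2 CPM), then Ncf1 and Hvcn1 (r = 0.909), Cyba and Ncf4 (r = 0.881) and Cyba and Rac2 (r = 0.818). Cybb followed no other member closely, with r between 0.180 for Hvcn1 and 0.399 for Rac2. Libraries of a group share their condition, so these values mostly follow the 5 group means and are a description. Among 7685 genes that averaged at least 10 CPM over the 19 libraries, those most like Cybb were Tmem38b (r = 0.860), Abtb1 (0.857) and Nfe2l2 (0.846), weaker likeness than any other member had. The nearest to Cyba were Tonsl (0.981), Hp (0.980), which encodes haptoglobin, and Vps36 (0.978). Rac2 was nearest to Tecr (0.988), Emc2 (0.987) and Scp2 (0.986), and Ncf4 to Pilrb2 (0.985), Rac2 itself and Tecr (0.981). Ncf1 was nearest to 0610030E20Rik (0.983), Ptov1 (0.966) and Smg8 (0.964), and Hvcn1 to Gpc1 (0.991), Ets1 (0.990) and Map4k2 (0.989). Gpc1, Ets1 and Ptov1 were below 10 CPM in all 4 monocyte groups and entered this ranking only through the libraries labelled inflamed CCR1.

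Cybc1, whose product helps the membrane subunits fold and reach the membrane, rose with inflammation by 0.84 on the log2 scale (adjusted p = 4.25e-06, edgeR) in CCR2+ve and by 0.96 (adjusted p = 2.83e-06) in CCR1/2+ve cells. Rac1, the widely expressed relative of Rac2 that can also serve the oxidase, went the other way from Rac2. It fell 11.0-fold in CCR2+ve monocytes, from 825 ± 76.6 to 78.3 ± 10.2 CPM (adjusted p = 3.23e-11), and 9.84-fold in CCR1/2+ve monocytes, from 657 ± 109 to 72.7 ± 6.52 CPM (adjusted p = 4.33e-09). Rac2 per exonic length accordingly exceeded Rac1 1.74 ± 0.0848 times in resting CCR2+ve, 2.04 ± 0.0581 times in resting CCR1/2+ve, 29.9 ± 2.40 times in inflamed CCR2+ve, 38.1 ± 1.80 times in inflamed CCR1/2+ve and 164 ± 19.1 times in the libraries labelled inflamed CCR1. The catalytic homologues Nox1, Nox3, Nox4, Duox1 and Duox2 and the accessory genes Noxa1 and Duoxa2, 7 of the 12 other subunits and homologues listed, had at most 3 reads in any library. With inflammation, 28.6% of all genes in CCR2+ve and 28.5% in CCR1/2+ve cells passed the fold cutoff in either direction. Cybc1, Rac1 and the genes of the lists below were read in the main fit only, without the GC correction or other settings.

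Rac must be loaded with GTP before the oxidase works. The counts of the following lists stand beside 21.9% of all genes called higher and 25.9% lower with inflammation in CCR2+ve cells, 20.6% and 25.4% in CCR1/2+ve cells, and 8.44% each way at rest, and the medians beside -0.10, -0.25 and 0.032 over all genes. Of 14 genes of the Rac cycle and assembly, 5 rose and 2 fell with inflammation in CCR2+ve and 7 rose and 2 fell in CCR1/2+ve cells, with medians of 0.20 and 0.44. Tiam1, a Rac exchange factor, rose 2.94-fold and 2.80-fold, Arhgdia, which holds Rac in the cytosol, rose 2.29-fold in CCR2+ve and Dock2, another exchange factor, 2.51-fold in CCR1/2+ve monocytes. Vav3 fell by 1.51 and 1.01 and Rap1a by 0.99 and 0.73 on the log2 scale. At rest 4 of the 14 were lower in CCR1/2+ve monocytes, Arhgap25 and Vav2 among them, and none was higher. Of 16 kinases and lipid enzymes upstream of assembly, 8 rose and 5 fell in CCR2+ve and 9 rose and 2 fell in CCR1/2+ve cells, where 47.8% and 46% of all genes were called, with medians of 0.31 and 0.50. Pik3cd, the leukocyte PI 3-kinase catalytic subunit, rose 3.49-fold and 3.21-fold, and Pla2g4a, the cytosolic phospholipase A2, 1.65-fold and 1.91-fold. Pak2 fell by 0.89 and 0.51, Prkcb by 0.96 in CCR2+ve and Plcg2 by 0.34 in CCR1/2+ve cells. At rest 5 of the 16 were lower in CCR1/2+ve monocytes and none was higher, with Mapk14 at -0.69 and Prkcb at -0.46.

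The oxidase draws on NADPH, which the pentose phosphate pathway regenerates. Of 13 genes of NADPH supply, 4 rose and 5 fell in CCR2+ve and 5 rose and 5 fell in CCR1/2+ve cells, with medians of -0.16 and 0.38 beside the -0.10 and -0.25 of all genes. G6pdx, the first enzyme of that pathway, rose 1.68-fold and 1.81-fold, H6pd rose 2.12-fold in CCR2+ve and Pgd 1.85-fold in CCR1/2+ve cells. Idh2, the mitochondrial NADP-dependent isocitrate dehydrogenase, fell 5.68-fold and 8.36-fold, and Pgls, the enzyme between G6pdx and Pgd, 14.2-fold in CCR1/2+ve monocytes. Me2, also counted in the list, fell 6.52-fold in CCR2+ve monocytes, but its malic enzyme works mainly with NAD. At rest only Nadk was called, 1.44-fold lower in CCR1/2+ve monocytes. Of 20 genes that remove superoxide and peroxide, 8 rose and 10 fell in CCR2+ve and 7 rose and 6 fell in CCR1/2+ve cells, with medians of -0.20 and -0.043, where 47.8% and 46% of all genes were called. Gsr, glutathione reductase, fell 6.35-fold and 4.01-fold, and Gclm, the modifier subunit of glutathione synthesis, 5.60-fold and 5.48-fold. Gpx3 and Srxn1 rose 3.21-fold and 3.09-fold in CCR2+ve, and Hmox1 and Cat 2.01-fold and 1.68-fold in CCR1/2+ve monocytes. At rest Txn1 and Gclm were higher and Hmox1 and Cat lower in CCR1/2+ve monocytes, 3 genes of the list higher and 2 lower in all.

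Factors known to act at oxidase gene promoters were the last list. Spi1 encodes PU.1, which drives Cybb and the cytosolic subunit genes in myeloid cells, and it fell 20.2-fold in CCR2+ve (735 ± 74.9 to 38.1 ± 1.64 CPM, adjusted p = 2.95e-12) and 18.1-fold in CCR1/2+ve monocytes (564 ± 85.0 to 33.9 ± 3.40 CPM, adjusted p = 1.45e-09). In the same libraries Cyba, Ncf4 and Rac2 rose and Cybb moved in opposite directions, as given above. Of the 17 factors tested, 2 rose and 9 fell in CCR2+ve and 6 rose and 9 fell in CCR1/2+ve cells, with medians of -1.14 and -0.60, where 25.9% and 25.4% of all genes fell. Jun fell 9.53-fold and 16.0-fold, Pml rose 2.50-fold in CCR2+ve, Nfkb1 rose 1.45-fold and 1.74-fold, and Irf2 rose 1.35-fold in CCR1/2+ve monocytes. At rest 10 of the 17 were lower in CCR1/2+ve monocytes, as 8.44% of all genes were, and none was higher, with a median of -0.37 beside 0.032 over all genes. Meis1 was 2.54-fold lower (4.37 ± 0.429 against 11.8 ± 3.48 CPM, adjusted p = 0.000560) and Irf2 1.62-fold lower. Hoxa10 and Cdx1 had at most 3 reads in any library.

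**Figure D4:**
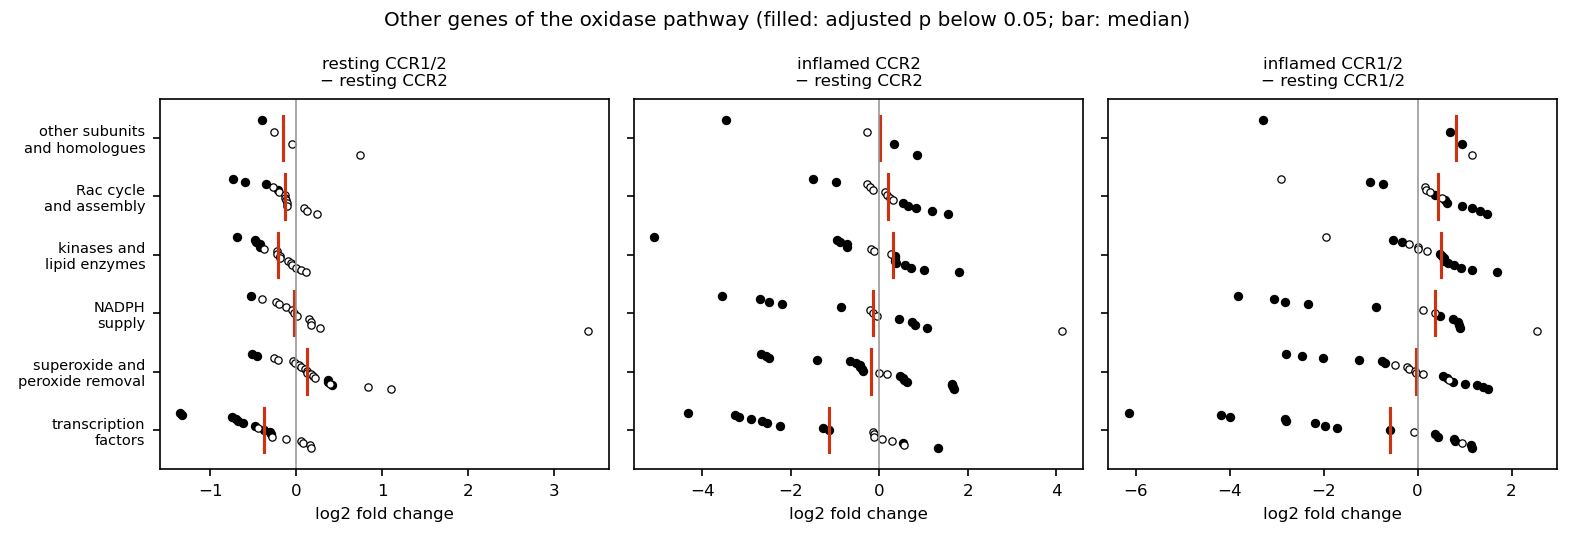
Log2 fold change (x axis) of the other genes of the oxidase pathway, by list (rows), in resting CCR1/2+ve against CCR2+ve monocytes and with inflammation in CCR2+ve and CCR1/2+ve monocytes. Each point is a gene, filled where the adjusted p is below 0.05, and the bar is the median of the list. The transcription factors have the lowest medians in all 3 panels (-0.37, -1.14 and -0.60), and the isolated filled point at the left of the first list is Rac1 in the panels of inflammation.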

How the data were processed

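RNA of sorted bone marrow cells from REP mice was sequenced in 19 labelled libraries. Per the labels and the study's methods, the authors checked reads with fastp, aligned them to GRCm38 with STAR 2.7.10a and deposited the raw read counts per gene that STAR gave, from reads aligned to a single place. Of the 20 count columns, 1 matched no sample and was not used. Gene positions are from GENCODE M21 and promoters from RefSeq.

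From these counts, 18652 genes averaging 1 read or more per library entered the test with edgeR 4.0.16 (R 4.3.3): TMM factors, robust quasi-likelihood F test, two-sided, fitted on the libraries of the 2 groups compared, with Benjamini-Hochberg adjustment over all genes tested. A gene was called at an adjusted p below 0.05, and the fold cutoff was a log2 fold change of 1 or more in size. The SE was taken as the fitted log2 value over the square root of the F statistic. CPM use TMM factors over all 19 libraries, so ratios of CPM differ slightly from the fitted fold changes. Alternatives were DESeq2 1.42.0, RLE size factors, no filter, filterByExpr, all 19 libraries in 1 fit, replicate number as a block, a GC offset with and without the block, a covariate parting replicates 1 and 2 from 3 and 4, the fold cutoff, and each library left out. GC content was known for 99.8% of the genes tested.

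Depth was 22268658 to 30502009 reads on genes. The counts have no molecular identifiers, so their precision covers counting error only. Replicate pairs of a group differed by a chi-square per degree of freedom of 11.1 to 73.4, so each library was kept as a sample of its own. Deviations from the group means over 7685 genes correlated at 0.306 to 0.611 between same-numbered resting libraries (4 pairs) and at 0.134 to 0.247 between libraries labelled inflamed CCR1 and inflamed CCR2+ve (4 pairs). On this correlation alone, these numbers were read as pairs in the fits with the block. The main fits have no block and ignore that pairing.

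Members, gene lists and tests were chosen with earlier results of these data known. Named were all members, at most 2 genes per list, comparison and direction with the smallest p among those called, genes with at most 3 reads in every library, marker genes, and the 3 genes most like each member. Listed genes without a row here (Prkcd, Tkt, Cebpe and Elf1) were not analysed. Some items of the study are not reported here.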

Additional observations from a re-analysis of the deposited data

Results flagged for a closer look

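The change of Cybb with inflammation differed between the populations: it was 0.97 higher on the log2 scale in CCR1/2+ve than in CCR2+ve monocytes by the test of that difference (SE 0.18, adjusted p = 0.0273, edgeR, 15 libraries). Every inflamed CCR1/2+ve library was above every resting one in Cybb, whereas the CCR2+ve groups overlapped. In the 24 sets of 4 libraries examined for a library far from the others, none was found, but sets of 4 show only a very distant library. The inflamed CCR1/2+ve group, with 3 libraries, was not examined. Without its replicate 3 the difference of Cybb lost its call (adjusted p = 0.136, edgeR).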

How the results depend on the processing

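Levels of the members moved by less than 1 SD of their group in all 144 recomputed values. Most of those are group means with 1 library left out, which cannot move by 1 SD whatever the data, so they do not test the levels. Of 738 recomputed fold changes 674 kept their direction and their side of the threshold. Counts of called members at rest went from 2 to 4 with the replicate block, 5 with the GC offset and the block together, and 4 with the covariate that parts replicates 1 and 2 from 3 and 4. Between the inflamed CCR1/2+ve and CCR2+ve monocytes the GC offset with the block called 1 member, Cyba, in place of 0. The difference between populations in the change with inflammation called 0 members with the GC offset in place of 1, and 0 to 1 with a library left out. With the fold cutoff as well, 0 members were called at rest, with inflammation in either population (6 and 5 without it) and in the difference between them, and 2 in the libraries labelled inflamed CCR1 against inflamed CCR1/2+ve. The replicate block gave counts of 6, 6, 0, 5, 4 and 1 in the other comparisons, in the order of the report with the difference between populations last. It called Ncf1 lower with inflammation in CCR1/2+ve monocytes (-0.62, adjusted p = 0.0104, edgeR). Same-numbered libraries there correlated at 0.0750 to 0.208 (3 pairs) and different numbers at up to 0.127, and they were not read as pairs. With the block Cybb was also called in the libraries labelled inflamed CCR1 against inflamed CCR2+ve, and no other call changed with it beyond those named.

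Signs turned only for values that were not called. Rac2 at rest lay between -0.092 and 0.034 with a library left out, and Cybb in the libraries labelled inflamed CCR1 against inflamed CCR1/2+ve between -0.14 and 0.025. For the difference between populations, Cyba was 0.050 with DESeq2 and with RLE size factors, 0.090 with all 19 libraries, 0.18 with the GC offset with or without the block, and -0.064 to 0.071 with a library left out, and Ncf1 was 0.012 with DESeq2, RLE size factors and the GC offset, 0.053 with all 19 libraries and -0.34 to 0.26 with a library left out. The cause was not tested. At rest the share of higher genes among all those called was 39.5% with all 19 libraries against 50.0%, and in the difference between populations 74.5% to 81.9% with RLE, the GC offset or all 19 libraries against 60.8%. All genes called between the inflamed CCR1/2+ve and CCR2+ve monocytes numbered 35, and 258 with DESeq2, and in the difference between populations 74, and 545 with DESeq2. With a library left out these numbers ran from 16 to 65 and from 0 to 253.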
